A study of Arabidopsis thaliana with 4 samples.

Results

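The 42 histone genes described here, of 32399 genes listed in the count table, encode the core histones H4, H3, H2A and H2B and the linker histone H1 of Arabidopsis thaliana. They were taken by their AGI gene codes and fall into 9 classes: 8 H4 genes, 5 H3.1, 3 H3.3, 4 H2A, 2 H2A.X, 3 H2A.W, 3 H2A.Z, 11 H2B and 3 H1. RNA came from dissected shoot apices of the Col-0 ecotype, the growing tips left after leaves, hypocotyl and roots were cut away. The plants were 9 days old when they went into liquid medium for 24 h, and 10 days old at harvest. The 4 groups were nse4a-2 mutants in 20 µM zebularine (nse4a-2_zeb), nse4a-2 mutants in medium without the drug (nse4a-2_ctrl), wild-type plants in 20 µM zebularine (WT_zeb) and wild-type plants in medium without it (WT_ctrl). NSE4A is a subunit of the SMC5/6 complex, which acts on chromosome structure and in DNA repair; what the nse4a-2 allele changes in the gene is not stated in the labels. Zebularine resembles cytidine, is built into DNA and binds DNA methyltransferases there. Each group had 2 replicate libraries, R1 and R2 in the table, which the labels list under 1 sample per group. The labels do not say what separates them, so p-values measure only the spread between these libraries, which may be technical.

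Histones are the proteins around which DNA is wrapped. Replication-coupled histones (H4, H3.1, H2A and H2B) are made mainly in S phase, when new DNA has to be packed. Replacement variants such as H3.3 and H2A.Z are also made outside S phase and are exchanged into chromatin at transcribed genes. H2A.X is the variant phosphorylated at DNA breaks, H2A.W marks plant heterochromatin, and H1 binds the linker DNA between nucleosomes. Plant histone promoters are known for short conserved elements, among them an octamer and a hexamer.

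Total counts ran from 15360494 to 19811948 per library. NSE4A (AT1G51130) itself was read at 18.5 and 21.1 CPM (counts relative to library sizes scaled by TMM) in nse4a-2_zeb, 8.40 and 7.80 CPM in nse4a-2_ctrl, 10.5 and 12.9 CPM in WT_zeb and 10.7 and 9.22 CPM in WT_ctrl, so its RNA level does not check the labels of the mutant libraries. Of 9 shoot meristem markers, STM had 13.6 to 21.3 CPM over the 8 libraries, whereas WUS stayed at or under 0.192 CPM and CLV3 at or under 0.384 CPM. The 42 histone genes took 0.363 and 0.385% of all counts in nse4a-2_zeb, 0.618 and 0.545% in nse4a-2_ctrl, while WT_zeb had 0.65 and 0.553% and WT_ctrl 0.583 and 0.596%. The share was thus lowest in both libraries that combined the mutation with the drug.

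The sequences show how far the copies can be told apart. The 8 H4 genes encode 1 identical protein, as do the 5 H3.1 genes and the 3 H3.3 genes, while their coding sequences are 78.8 to 98.1%, 80.3 to 89.5% and 78.6 to 88.8% identical within each class. H3.1 and H3.3 differ at 4 residues in all 15 pairs of genes, A31T, F41Y, S87H and A90L, with the H3.1 residue first and positions counted after the initiating methionine. The stretches below, from the RefSeq annotation of TAIR10.1, show an H3.1 and an H3.3 gene over those residues, with the differing codons in capitals.
AT1G09200 (HTR2, H3.1), codons 28 to 42: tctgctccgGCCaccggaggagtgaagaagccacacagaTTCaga
AT4G40040 (HTR5, H3.3), codons 28 to 42: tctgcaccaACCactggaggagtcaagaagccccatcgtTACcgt
AT1G09200 (HTR2, H3.1), codons 84 to 93: ttccagagcAGTgccgtcGCCgctcttcag
AT4G40040 (HTR5, H3.3), codons 84 to 93: ttccagagcCATgctgtgCTTgcactccag
Between these genes the silent positions also differ. Exact 100-base stretches shared with another locus were found only in 4 H4 transcripts, AT1G07660 (6.1% of its 100-base windows), AT1G07820 (4.32%), AT3G45930 (11.1%) and AT3G46320 (12.1%). With up to 2 mismatches, 6 H4 genes shared 13.5 to 41.7% of their windows with another member, namely those 4 with AT5G59690 and AT5G59970. Outside H4 the shares were small, at 2.16 and 2.83% for AT1G51060 and AT3G20670 of H2A and 0.318 and 0.308% for AT3G45980 and AT3G46030 of H2B. The split of counts within these 3 H4 pairs is therefore uncertain, and the pairs are also given as sums.

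The promoter stretches shown all hold the octamer, which 10 of the 42 histone genes have, so they do not stand for the other genes. Each line gives the 150 bases before the annotated gene start, 5′ to 3′ on the gene's strand, with the octamer CGCGGATC and the hexamer CCGTCG in capitals on either strand.
AT5G59690 (H4, TAIR10.1 chr5:24051324-24051473, forward strand): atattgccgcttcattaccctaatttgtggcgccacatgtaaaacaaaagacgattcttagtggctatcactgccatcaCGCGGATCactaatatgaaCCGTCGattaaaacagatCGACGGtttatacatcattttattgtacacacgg
AT1G07660 (H4, TAIR10.1 chr1:2368683-2368832, forward strand): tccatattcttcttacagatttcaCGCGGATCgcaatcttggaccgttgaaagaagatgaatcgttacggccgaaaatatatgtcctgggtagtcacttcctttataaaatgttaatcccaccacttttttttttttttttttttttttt
AT1G09200 (HTR2, H3.1, TAIR10.1 chr1:2972335-2972484, reverse strand): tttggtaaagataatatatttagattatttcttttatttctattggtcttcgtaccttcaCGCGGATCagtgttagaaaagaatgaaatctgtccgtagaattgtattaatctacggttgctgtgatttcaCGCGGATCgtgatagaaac
AT1G51060 (HTA10, H2A, TAIR10.1 chr1:18926661-18926810, forward strand): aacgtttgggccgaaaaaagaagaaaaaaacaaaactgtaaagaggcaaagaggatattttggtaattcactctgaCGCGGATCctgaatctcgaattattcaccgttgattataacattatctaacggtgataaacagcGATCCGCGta
AT5G59870 (HTA6, H2A.W, TAIR10.1 chr5:24116221-24116370, reverse strand): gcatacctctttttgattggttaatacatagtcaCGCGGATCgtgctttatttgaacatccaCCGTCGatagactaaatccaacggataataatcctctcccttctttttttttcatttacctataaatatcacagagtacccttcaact
AT4G40040 (HTR5, H3.3, TAIR10.1 chr4:18558946-18559095, reverse strand): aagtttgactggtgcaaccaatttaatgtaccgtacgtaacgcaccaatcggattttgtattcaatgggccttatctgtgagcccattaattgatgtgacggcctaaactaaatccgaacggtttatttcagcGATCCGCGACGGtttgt
In windows of 250 bases before to 50 after the start, the octamer was found in 0.146% of 27437 protein-coding promoters and the hexamer in 3.98%. Among the histone genes, the octamer was present in 2 of 8 H4 promoters, 3 of 5 H3.1, 2 of 4 H2A, 1 of 3 H2A.W, 1 of 3 H3.3 and 1 of 3 H1, and in none of the 11 H2B, 3 H2A.Z and 2 H2A.X promoters. The hexamer was present in 3 of 8 H4, 2 of 3 H3.3 and 1 of 4 H2A promoters. For H2A.W it was 1 of 3, for H2B 2 of 11 and for H1 1 of 3. None of the 5 H3.1, 3 H2A.Z and 2 H2A.X promoters held it. In AT4G40040 the octamer overlaps the hexamer by 2 bases. The E2F sites TTTCCCGC, TTTGGCGC, TTTGCCGC and TTTCGCGC, present in 1.76% of all promoters, occurred in AT3G45930, AT3G46320 and AT5G22880, and CATCCAAC, the core of the nonamer element, present in 0.631%, occurred in none of the 42. Matches are descriptions of these windows only.

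The first comparison asked how the mutant responds to the drug. In nse4a-2, the summed RNA of H4, H3.1, H2A, H2B, H2A.W and H2A.X fell with zebularine, while the sums of H3.3, H2A.Z and H1 were not called. Of the 42 genes, 40 passed the filter on low counts. In nse4a-2_zeb against nse4a-2_ctrl, 27 of the 40 fell and 0 rose at an adjusted p below 0.05 (edgeR's quasi-likelihood test, Benjamini-Hochberg over the whole table), against 5.74% of all 19682 genes called lower and 8.94% called higher. The median log2 fold change of the tested histone genes was -0.79, against -0.001 for all genes. The call held without each of the 8 libraries in turn for 19 of the 27; it was lost in at least 1 such fit for AT1G07660, AT5G65360, AT1G54690, AT3G54560, AT5G59910, AT3G45980, AT3G46030 and AT1G06760. In bulk tissue, fewer cells of a type and less RNA per cell cannot be told apart.

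**Figure D1:**
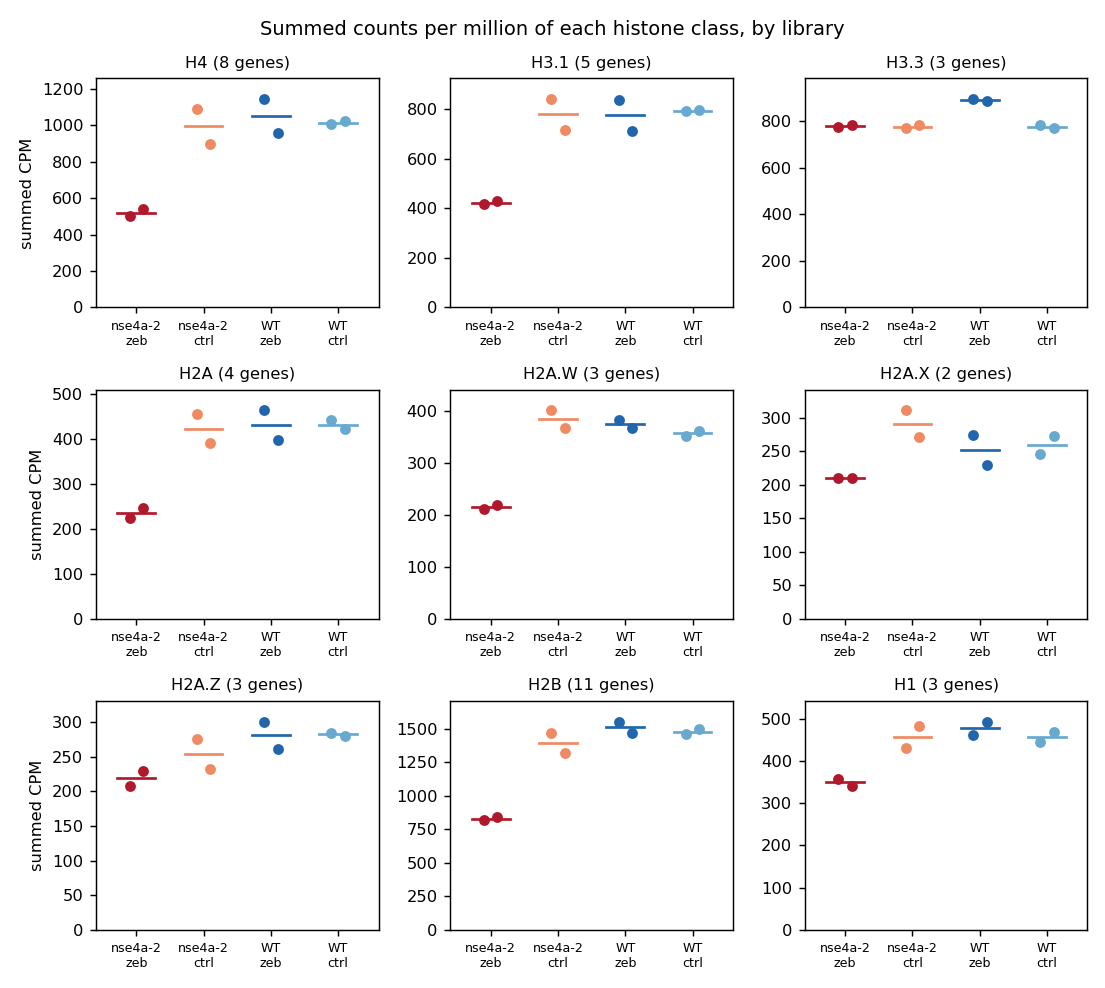
Summed CPM of the genes of each histone class (vertical axes, each from 0) in the 4 groups; points are the 2 libraries of a group and bars their mean. The sums of every class but H3.3 lie lowest in both nse4a-2_zeb libraries, by little for H2A.Z, while the H3.3 sums of nse4a-2_zeb (775 and 784 CPM) lie beside those of nse4a-2_ctrl (771 and 782 CPM).

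All 8 H4 genes fell, by 0.64 to 1.13 on the log2 scale. H4 forms a single class here, with no variant class. Their summed level was 501 and 540 CPM in nse4a-2_zeb and 1090 and 900 CPM in nse4a-2_ctrl, with no overlap. The class sum gave a log2 fold change of -0.93 ± 0.15 (SE; adjusted p = 0.00377, edgeR over the 19651 features of the table with class sums, of which 5.63% were called lower). By mean FPKM over all 8 libraries, AT5G59690 was the most abundant H4 gene, at 314 and 347 FPKM in nse4a-2_zeb, 620 and 521 FPKM in nse4a-2_ctrl, 718 and 603 FPKM in WT_zeb and 602 and 627 FPKM in WT_ctrl. Its 2 nse4a-2_zeb libraries lay below the other 6. It fell by 0.79 ± 0.14 on the log2 scale (adjusted p = 0.00601, edgeR). AT3G53730 was next by mean FPKM, but the higher of these in each mutant library, with 337 and 348 FPKM in nse4a-2_zeb and 680 and 569 FPKM in nse4a-2_ctrl. It was followed by AT2G28740, AT1G07820, AT5G59970, AT3G46320, AT3G45930 and AT1G07660. Summed over near-identical pairs, AT3G45930 and AT3G46320 had 65.5 and 70.1 CPM in nse4a-2_zeb and 158 and 138 CPM in nse4a-2_ctrl. AT5G59690 and AT5G59970 together had 169 and 186 CPM in nse4a-2_zeb and 345 and 301 CPM in nse4a-2_ctrl. For WT_zeb that sum was 402 and 332 CPM, and for WT_ctrl 346 and 358 CPM. AT1G07660 and AT1G07820 together had 88.8 and 101 CPM in nse4a-2_zeb and 210 and 159 CPM in nse4a-2_ctrl. The order of genes within these pairs rests on the uncertain split.

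The 5 H3.1 genes also all fell. Their sum was 418 and 430 CPM in nse4a-2_zeb and 841 and 718 CPM in nse4a-2_ctrl (log2 fold change -0.88 ± 0.14, adjusted p = 0.0036, edgeR). HTR1 (AT5G65360) had the highest mean FPKM of the class, with 302 and 299 FPKM in nse4a-2_zeb, 563 and 461 FPKM in nse4a-2_ctrl, 567 and 484 FPKM in WT_zeb and 541 and 558 FPKM in WT_ctrl. HTR3 (AT3G27360) showed the largest fall of any called member, with 37.3 and 43.0 CPM in nse4a-2_zeb, 104 and 90.5 CPM in nse4a-2_ctrl, 93.8 and 64.9 CPM in WT_zeb and 66.5 and 66.7 CPM in WT_ctrl. The mutant drug libraries were the lowest, without overlap, and WT_zeb replicate 1 lay between the 2 nse4a-2_ctrl libraries, above the other 3 wild-type libraries. Its log2 fold change was -1.28 ± 0.17 (adjusted p = 0.00177, edgeR); AT3G27360 overlaps AT3G27380 on the same strand. HTR2 (AT1G09200), HTR13 (AT5G10390) and HTR9 (AT5G10400) fell by 0.84, 0.81 and 0.96.

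No gene of H3.3, the replacement form of H3, was called. HTR5 (AT4G40040), the most abundant H3.3 gene, had 349 and 366 CPM in nse4a-2_zeb, 342 and 356 CPM in nse4a-2_ctrl, 414 and 454 CPM in WT_zeb and 363 and 351 CPM in WT_ctrl. Only the WT_zeb libraries stood out, above all others. For zebularine in the mutant, HTR4 (AT4G40030), HTR5 and HTR8 (AT5G10980) had log2 fold changes of 0.02, 0.03 and -0.05, none called and none at an unadjusted p below 0.05. The H3.3 sum changed by 0.01 ± 0.11, with a 95% interval of -0.25 to 0.26.

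Of the 4 H2A genes, 3 fell. HTA10 (AT1G51060), the most abundant, had 101 and 110 CPM in nse4a-2_zeb, 198 and 174 CPM in nse4a-2_ctrl, 205 and 169 CPM in WT_zeb and 200 and 193 CPM in WT_ctrl, and only the mutant drug libraries stood below the rest. It fell by 0.82 ± 0.13 (adjusted p = 0.00408, edgeR), HTA2 (AT4G27230) by 0.81 and HTA13 (AT3G20670) by 1.08. HTA1 (AT5G54640) gave -0.43 and missed the threshold (adjusted p = 0.0566, edgeR). The H2A sum was 223 and 246 CPM in nse4a-2_zeb and 455 and 391 CPM in nse4a-2_ctrl (log2 fold change -0.85 ± 0.14, adjusted p = 0.00388, edgeR).

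Among the H2A variants, the H2A.W and H2A.X sums fell and the H2A.Z sum was not called. HTA6 (AT5G59870), the main H2A.W gene, had 157 and 162 CPM in nse4a-2_zeb, 287 and 271 CPM in nse4a-2_ctrl, 267 and 265 CPM in WT_zeb and 246 and 254 CPM in WT_ctrl; it fell by 0.81 ± 0.11 (adjusted p = 0.00176, edgeR). HTA7 (AT5G27670) fell by 0.96. HTA12 (AT5G02560), read at 1.27 to 2.43 CPM in any library and overlapping HTB10 on the opposite strand, was not called. The H2A.W sum changed by -0.84 ± 0.11 (adjusted p = 0.00179, edgeR). HTA5 (AT1G08880), the more abundant H2A.X gene, had 123 and 123 CPM in nse4a-2_zeb, 175 and 149 CPM in nse4a-2_ctrl, 156 and 126 CPM in WT_zeb and 141 and 159 CPM in WT_ctrl. HTA5 gave -0.40 (adjusted p = 0.0914, edgeR) and HTA3 (AT1G54690) fell by 0.57 (adjusted p = 0.0126, edgeR). The H2A.X sum was called (-0.47 ± 0.13, adjusted p = 0.0433, edgeR), but not without nse4a-2_zeb replicate 1, nse4a-2_zeb replicate 2, nse4a-2_ctrl replicate 1, WT_ctrl replicate 1 or WT_ctrl replicate 2 (adjusted p up to 0.216).

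Of the 3 H2A.Z genes, 1 fell. HTA9 (AT1G52740), the most abundant, had 131 and 146 CPM in nse4a-2_zeb, 145 and 127 CPM in nse4a-2_ctrl, 156 and 128 CPM in WT_zeb and 149 and 143 CPM in WT_ctrl, and all 4 groups overlapped. Its log2 fold change was 0.03 ± 0.13, with an interval of -0.27 to 0.33. HTA11 (AT3G54560), singled out after its values were seen, had 53.5 and 55.8 CPM in nse4a-2_zeb, 85.9 and 76.9 CPM in nse4a-2_ctrl, 94.4 and 89.4 CPM in WT_zeb and 92.7 and 92.4 CPM in WT_ctrl. It fell by 0.58 ± 0.11 (adjusted p = 0.00826, edgeR), a call lost without nse4a-2_zeb replicate 1 or nse4a-2_zeb replicate 2. HTA8 (AT2G38810) gave -0.51 (adjusted p = 0.108, edgeR). HTA9 took 57.1 and 57% of the H2A.Z FPKM in nse4a-2_zeb and 46.4 and 48.1% in nse4a-2_ctrl. The H2A.Z sum was not called (-0.22 ± 0.13, 95% interval -0.51 to 0.08).

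Of the 11 H2B genes, 10 were tested and 6 fell. HTB2 (AT5G22880), the most abundant by mean FPKM over all 8 libraries, had 136 and 134 CPM in nse4a-2_zeb, 319 and 268 CPM in nse4a-2_ctrl, 350 and 324 CPM in WT_zeb and 342 and 346 CPM in WT_ctrl. The mutant drug libraries were far below the other 6, and it fell by 1.12 ± 0.13 (adjusted p = 0.000712, edgeR). In nse4a-2_zeb, HTB2 took 18.3 and 17.5% of the H2B FPKM, below HTB4 (21.9 and 22.2%) and HTB9 (21.4 and 22.8%). HTB5 (AT2G37470) fell by 1.06, HTB1 (AT1G07790) by 0.99, HTB11 (AT3G46030) by 0.72, HTB9 (AT3G45980) by 0.59 and HTB4 (AT5G59910) by 0.56. HTB3 (AT2G28720), singled out after its values were seen, had 47.4 and 43.4 CPM in nse4a-2_zeb, 44.7 and 48.1 CPM in nse4a-2_ctrl, 29.1 and 38.5 CPM in WT_zeb and 36.8 and 35.5 CPM in WT_ctrl. All 4 mutant libraries lay above all 4 wild-type libraries for this gene, and none of the 5 contrasts was called. The nearest to the threshold was nse4a-2 against wild type in zebularine, at 0.43 (adjusted p = 0.0553, edgeR). HTB6 (AT3G53650), HTB7 (AT3G09480) and HTB10 (AT5G02570) gave -0.95, -0.51 and -0.27 and were not called, and HTB8 (AT1G08170) had 0 to 2 reads in any library. The H2B sum was 818 and 841 CPM in nse4a-2_zeb and 1465 and 1315 CPM in nse4a-2_ctrl (log2 fold change -0.75 ± 0.13, adjusted p = 0.00524, edgeR), a call lost without nse4a-2_zeb replicate 2 (adjusted p = 0.0661).

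Of the linker histones, H1.1 (AT1G06760) had 175 and 178 CPM in nse4a-2_zeb, 220 and 239 CPM in nse4a-2_ctrl, 259 and 254 CPM in WT_zeb and 250 and 254 CPM in WT_ctrl. It fell by 0.38 ± 0.11 (adjusted p = 0.0444, edgeR), a call lost in each of the 8 fits that left out 1 library. H1.2 (AT2G30620) gave -0.39 (adjusted p = 0.0873, edgeR), the H1 sum -0.38 ± 0.12 (adjusted p = 0.0605, edgeR), and H1.3 (AT2G18050), a stress-induced linker histone, had 0 to 6 reads in any library. In the authors' deposited table, 27 of the 42 genes are also lower and 0 higher for this comparison, of which 26 were called here too. AT3G53650 is called only in that table and AT1G06760 only here. That table calls 2394 of its 32399 genes in either direction for this comparison. It comes from the same libraries and is no separate support.

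**Figure D2:**
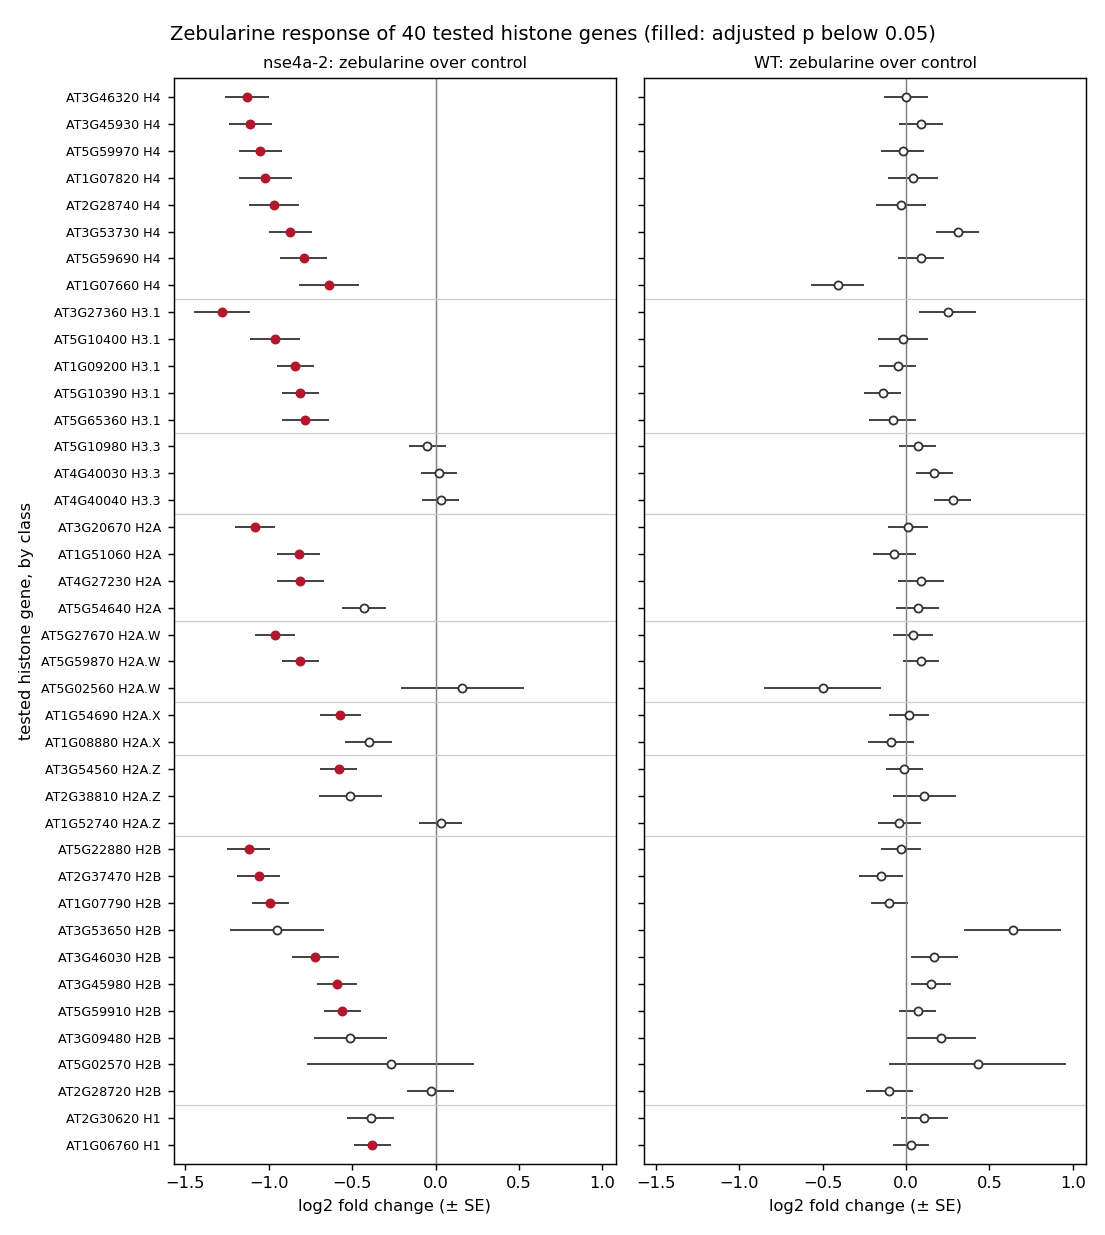
Log2 fold change of zebularine over control (horizontal axes, ± SE) for the 40 tested histone genes, grouped by class, in nse4a-2 on the left and wild type on the right; filled points have an adjusted p below 0.05. The 27 filled points all lie left of 0 in nse4a-2, and wild type has none.

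The same drug in wild type was the second comparison. No histone gene was called in WT_zeb against WT_ctrl, 0 lower and 0 higher of 40, against 0.635% and 1.66% of all genes. DESeq2, limma on FPKM and the authors' deposited table, which calls 1120 genes in all here, called 0 of them as well. At an unadjusted p below 0.05 in edgeR's test, 3 of the 40 differed: AT1G07660 (-0.41), AT3G53730 (0.31) and AT4G40040 (0.28), the first 2 of H4 and the last of H3.3. The median was 0.04. The class sums ran from -0.04 for H3.1 and H2A.X to 0.20 for H3.3 (95% interval -0.06 to 0.45), and that for H4 was 0.05 (-0.28 to 0.38). The H4 interval does not reach the -0.93 seen in the mutant, which has its own interval of -1.26 to -0.60. The direct test of this difference, given below, was not called for the H4 sum.

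Whether the 2 genotypes differ in their response was tested directly, as the response of nse4a-2 minus that of wild type. For 10 of 40 histone genes it was lower in the mutant, and for 0 higher, against 0.224% and 0.549% of all genes. These were AT3G45930, AT3G46320, AT3G53730 and AT5G59970 of H4, AT3G27360 of H3.1, AT3G20670 of H2A, AT5G59870 and AT5G27670 of H2A.W, and AT1G07790 and AT5G22880 of H2B. The largest of these was that of AT3G27360, at -1.53 ± 0.24 (adjusted p = 0.029, edgeR). Of the class sums, H2A.W passed (-0.91 ± 0.16, adjusted p = 0.0424, edgeR; 0.158% of features lower in that table; called in 2 of the 8 fits without 1 library, those without nse4a-2_ctrl replicate 2 or WT_zeb replicate 2, with an adjusted p of up to 0.179), and H4 (-0.98 ± 0.21), H2A (-0.85 ± 0.19), H3.1 (-0.84 ± 0.19) and H2B (-0.78 ± 0.18) had adjusted p of 0.0707 to 0.0853 in edgeR's test. H3.3 gave -0.19 ± 0.16 and H2A.Z -0.21 ± 0.19. The count depends on single libraries: it was 0 without nse4a-2_zeb replicate 1, nse4a-2_zeb replicate 2, nse4a-2_ctrl replicate 1, WT_ctrl replicate 1 or WT_ctrl replicate 2, 2 without WT_zeb replicate 1 and 9 without nse4a-2_ctrl replicate 2 or WT_zeb replicate 2. DESeq2 gave 23.

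The third comparison, nse4a-2 against wild type in control medium, gave 3 called genes and no called class sum. Of 40, 1 was lower and 2 were higher, against 0.854% and 2.28% of all genes. The authors' deposited table, which calls 1260 genes in all here, calls the same 3. No class sum was called, from -0.15 for H2A.Z to 0.17 for H2A.X, and the median was -0.03.

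The lower one was AT1G07660 of H4. It had 16.8 and 17.7 CPM in nse4a-2_zeb, 31.3 and 22.3 CPM in nse4a-2_ctrl, 67.3 and 53.3 CPM in WT_zeb and 77.6 and 83.1 CPM in WT_ctrl. Every mutant library was below every wild-type library. Its log2 fold change in control medium was -1.59 ± 0.17 (adjusted p = 0.00288, edgeR), and the call held without each of the 8 libraries in turn. AT1G07820, whose coding sequence is 98.1% identical, gave -0.16 (adjusted p = 0.654, edgeR). Summed over this pair, nse4a-2_ctrl had 210 and 159 CPM and WT_ctrl 253 and 259 CPM, without overlap. Of the 10 genes next to AT1G07660, 7 were tested and none was called in this comparison, 1 of them, AT1G07650, with an adjusted p of 0.0549 in edgeR's test (log2 fold change 0.51). Neighbours of this gene and of the 2 higher ones were looked at after their values were seen.

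The 2 higher ones were AT3G53730 of H4 and HTB6 (AT3G53650) of H2B. Their class sums were near 0 and not called (-0.03 ± 0.15 for H4 and -0.09 ± 0.13 for H2B). Of 10 tested H2B genes, 4 were below 0, with a median of 0.16. AT3G53730 had 117 and 120 CPM in nse4a-2_zeb, 237 and 197 CPM in nse4a-2_ctrl, 192 and 163 CPM in WT_zeb and 146 and 140 CPM in WT_ctrl, and both mutant control libraries lay above all others. Its log2 fold change was 0.60 ± 0.13 (adjusted p = 0.0437, edgeR). HTB6 had 6.10 and 6.52 CPM in nse4a-2_zeb, 12.3 and 12.2 CPM in nse4a-2_ctrl, 6.96 and 8.59 CPM in WT_zeb and 6.67 and 3.20 CPM in WT_ctrl, again highest in the mutant controls. Its log2 fold change was 1.3 ± 0.29 (adjusted p = 0.0443, edgeR). Neither call held in the fits without nse4a-2_zeb replicate 1, nse4a-2_zeb replicate 2, nse4a-2_ctrl replicate 1, nse4a-2_ctrl replicate 2 or WT_ctrl replicate 2; without WT_ctrl replicate 1, HTB6 was called at 1.95 and AT3G53730 was not. Of the 10 genes next to AT3G53730, 9 were tested, and of those next to HTB6, 8; the 1 called in each set was the same gene, AT3G53710, higher in nse4a-2_ctrl (0.63 ± 0.12, adjusted p = 0.0223, edgeR).

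**Figure D3:**
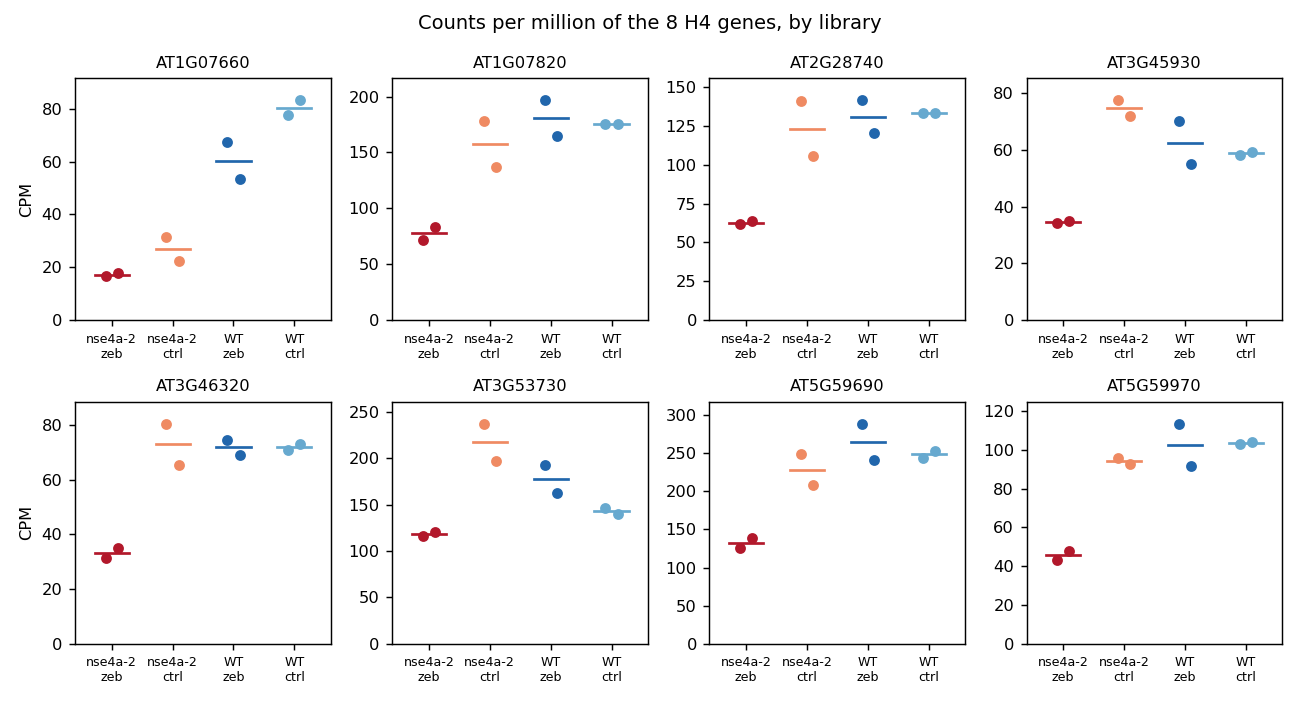
CPM of the 8 H4 genes (vertical axes, each from 0) in the 4 groups; points are the 2 libraries of a group and bars their mean. AT1G07660 is lower in all 4 nse4a-2 libraries (16.8 to 31.3 CPM) than in all 4 wild-type libraries (53.3 to 83.1 CPM), and AT3G53730 is highest in nse4a-2_ctrl.

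In zebularine, nse4a-2 against wild type gave the counterpart of the drug response. Since it shares its nse4a-2_zeb libraries with the first comparison, it is no separate support for it. Of 40 histone genes 28 were lower and 0 higher, against 9.09% and 12.9% of all genes, with a median of -0.78, and 22 of the 28 calls held without each library in turn. All 8 H4, 5 H3.1 and 4 H2A genes were lower, with 6 of 10 tested H2B, 2 of 3 H2A.W, 2 of 3 H2A.Z (AT2G38810 and AT3G54560) and 1 of 2 tested H1 genes, while 0 of 3 H3.3 and 0 of 2 H2A.X genes passed. At an unadjusted p below 0.05, 1 gene of H3.3 and 1 of H2A.X did. AT1G07660 showed the largest difference, -1.81 ± 0.18 (adjusted p = 0.000181, edgeR). The class sums of H4 (-1.01), H2A (-0.88), H3.1 (-0.87), H2B (-0.87), H2A.W (-0.80) and H1 (-0.45) were called, in a table with 8.99% of features lower. The H1 call held in 2 of the 8 fits without 1 library, those without nse4a-2_ctrl replicate 1 or nse4a-2_ctrl replicate 2. The sums of H2A.Z (-0.36), H2A.X (-0.26) and H3.3 (-0.19) were not.

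Ratios of classes within a library do not depend on how libraries are scaled. The log2 ratio of H3.1 to H3.3 counts was -0.89 and -0.87 in nse4a-2_zeb, 0.13 and -0.12 in nse4a-2_ctrl, while WT_zeb had -0.09 and -0.32 and WT_ctrl 0.01 and 0.05. The mutant drug libraries stood apart from the other 6. In wild type this ratio was also lower with zebularine, without overlap, with a difference of -0.24 (p = 0.333, 2-sided exact permutation test). H2A to H2A.Z was 0.10 and 0.10 in nse4a-2_zeb, 0.73 and 0.75 in nse4a-2_ctrl, while WT_zeb had 0.62 and 0.61 and WT_ctrl 0.63 and 0.59, again lowest in the mutant with the drug. H2A to H2A.X was 0.09 and 0.22 in nse4a-2_zeb and 0.55 and 0.53 in nse4a-2_ctrl. WT_zeb had 0.76 and 0.79 and WT_ctrl 0.84 and 0.62, so nse4a-2_ctrl already lay below wild type. H2A to H2A.W was 0.09 and 0.17 in nse4a-2_zeb and 0.18 and 0.09 in nse4a-2_ctrl, and H3.1 to H4 was -0.26 and -0.33 in nse4a-2_zeb and -0.37 and -0.32 in nse4a-2_ctrl. Both overlapped between these groups. The difference between nse4a-2_zeb and nse4a-2_ctrl was -0.88 for H3.1 to H3.3, -0.64 for H2A to H2A.Z and -0.38 for H2A to H2A.X, each with p = 0.333 in a 2-sided exact permutation test, the smallest that 2 against 2 libraries allow.

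**Figure D4:**
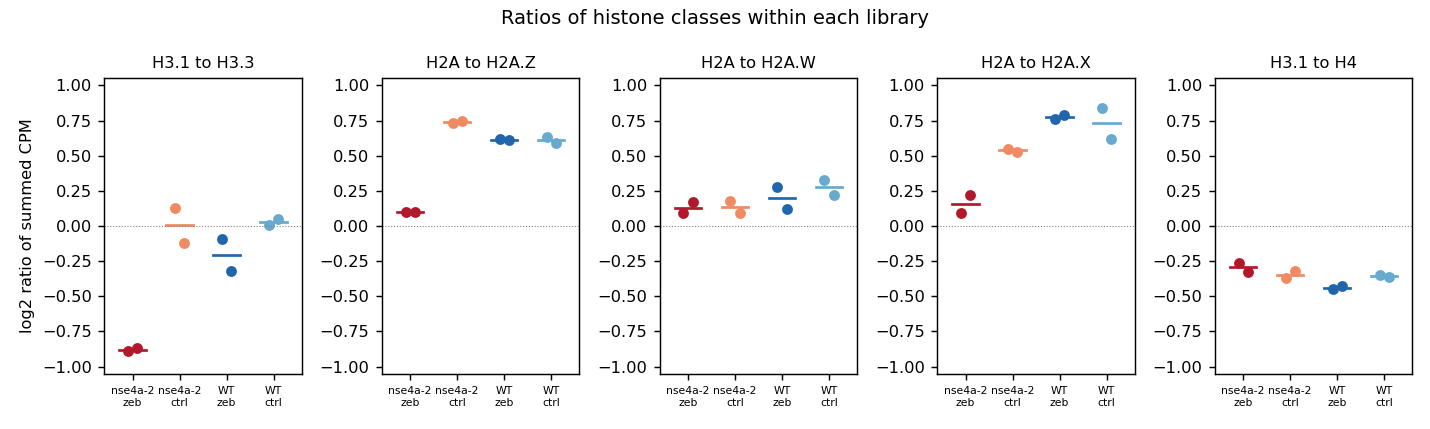
Log2 ratio of the summed CPM of a pair of histone classes (vertical axes) within each library, in the 4 groups; points are the 2 libraries of a group and bars their mean. H3.1 to H3.3 and H2A to H2A.Z are lowest in both nse4a-2_zeb libraries (-0.89 and -0.87, and 0.10 and 0.10), while H2A to H2A.W and H3.1 to H4 stay within -0.45 to 0.33 in all libraries.

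Lists of other cell-cycle genes were set beside the histone genes. Of all genes, 5.74% were called lower and 8.94% higher with zebularine in nse4a-2, and 0.635% lower and 1.66% higher in wild type. Of 22 S-phase machinery genes, 7 fell and 1 rose with zebularine in nse4a-2 and 1 fell in wild type, with medians of -0.37 in nse4a-2 and -0.31 in wild type. In edgeR's test, 13 of the 22 in nse4a-2 and 15 in wild type had an unadjusted p below 0.05, in either direction. Below 0 were 18 in nse4a-2 and 20 in wild type. The helicase subunit gene MCM7 (-0.62), the sliding clamp genes PCNA2 (-0.58) and PCNA1 (-0.53) were among those that fell in the mutant, and the thymidine kinase gene TK1A rose (0.86), while CDT1A, for replication licensing, fell in wild type (-0.62). Of 19 G2/M genes, 11 fell and 1 rose in nse4a-2 and 3 fell in wild type, with medians of -0.64 in nse4a-2 and -0.57 in wild type. Here 17 in nse4a-2 and 13 in wild type had an unadjusted p below 0.05 in edgeR's test, and 18 and 19 were below 0. In the mutant the largest falls were those of the mitotic cyclin genes CYCB1;2 (-0.88) and CYCB1;3 (-0.80), of CDC20.1 (-0.84), which drives exit from mitosis, and of PLE (-0.80), for a microtubule bundling protein, and the cyclin gene CYCB1;1 rose (0.56). In wild type they were CDC20.1 (-0.76) and the Aurora kinase genes AUR2 (-0.66) and AUR1 (-0.64). The histone medians were -0.79 in nse4a-2 and 0.04 in wild type. For the difference of the responses the medians were -0.74 for histone genes, 0.05 for S-phase machinery and -0.12 for G2/M genes, and edgeR called 0 S-phase machinery and 0 G2/M genes (2 and 1 at an unadjusted p below 0.05). Whether the lists differ was not tested.

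**Figure D5:**
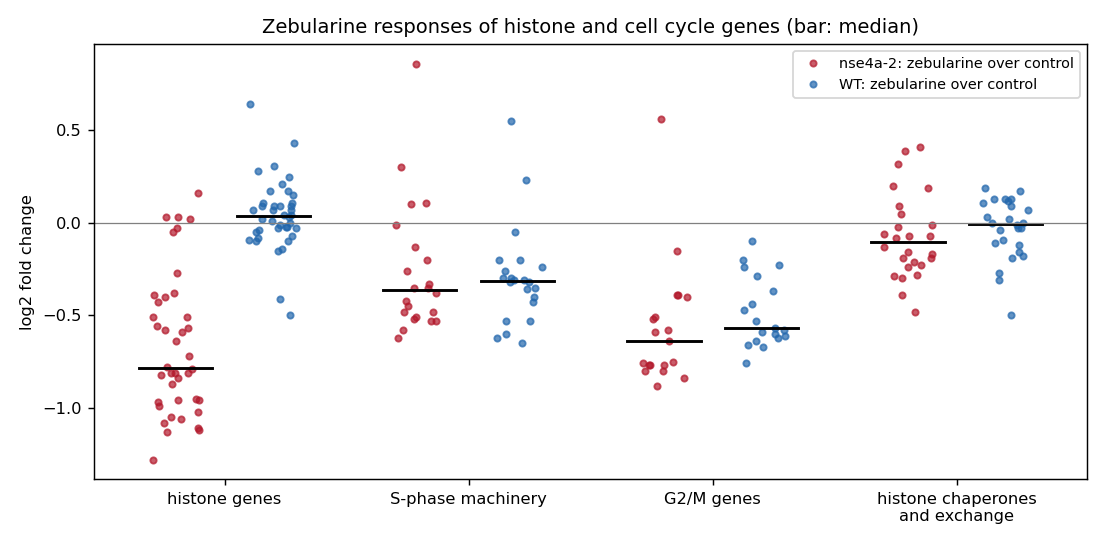
Log2 fold change of zebularine over control (vertical axis) for the tested genes of 4 lists, in nse4a-2 (left of each pair) and in wild type (right); each point is a gene and bars are medians. The histone medians are -0.79 in nse4a-2 and 0.04 in wild type, whereas those of the G2/M genes are -0.64 and -0.57.

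Of 26 genes for histone chaperones and exchange, only NRP1, for a NAP1-related chaperone, fell with zebularine in nse4a-2 (-0.48 ± 0.12, adjusted p = 0.0262, edgeR), against 5.74% of all genes, and 0 were called in wild type. At an unadjusted p below 0.05 there were 6 in nse4a-2 and 2 in wild type. In zebularine, nse4a-2 against wild type gave 4 of 26 lower, against 9.09% of all genes, NRP1 (-0.62), NAP1;2 (-0.49), NAP1;1 (-0.46) and FAS1 (-0.35), the last the largest subunit of the CAF-1 chaperone that deposits H3.1 with H4. Of 7 E2F and RBR regulators, 0 were called for zebularine in either genotype (2 at an unadjusted p below 0.05 in nse4a-2, 0 in wild type), and DEL1 was lower in nse4a-2 in zebularine (-0.62). Of 7 other histone genes, 4 were tested, and CENH3, the centromeric H3, was lower in nse4a-2 in zebularine (-0.73 ± 0.23, adjusted p = 0.0469, edgeR). HTR10 and HTR15 were at 0 in every library.

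Markers of cell types that the apices could hold were also looked at. With zebularine, 5.74% of all genes were called lower and 8.94% higher in nse4a-2, and 0.635% lower and 1.66% higher in wild type. The summed shoot meristem markers were 140 and 135 CPM in nse4a-2_zeb, 117 and 136 CPM in nse4a-2_ctrl, 115 and 118 CPM in WT_zeb and 104 and 104 CPM in WT_ctrl, and 1 of 7 tested, KNAT6, rose with the drug in nse4a-2 (0.74). The median of these 7 was 0.01, 3 were below 0, and STM, not called, was at -0.39. The 9 photosynthesis genes of leaf mesophyll summed to 20961 and 18462 CPM in nse4a-2_zeb, 13153 and 15323 CPM in nse4a-2_ctrl, 15616 and 19776 CPM in WT_zeb and 17200 and 14226 CPM in WT_ctrl, with 3 higher in nse4a-2 and 1 in wild type. The 6 stomatal lineage genes summed to 73.5 and 59.6 CPM in nse4a-2_zeb, 103 and 110 CPM in nse4a-2_ctrl, 73.6 and 87.4 CPM in WT_zeb and 117 and 92.7 CPM in WT_ctrl, with 2 lower in nse4a-2. The 4 root genes summed to 1.32 to 7.0 CPM in any library, and of the 3 tested COBL9 rose with the drug in nse4a-2 (3.93), while PRP3 (-2.64) and WOX5 (-0.18) were not called. COBL9 had 2.41 and 3.52 CPM in nse4a-2_zeb and 0.254 and 0.124 CPM in nse4a-2_ctrl. In those control libraries 3 counts are 0.195 and 0.185 CPM, so the size of its change rests on very few control reads. No gene of these 4 lists was at 0 in every library. The part of these cell types in the histone differences was not tested.

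By promoter, 9 of 10 histone genes with the octamer fell in nse4a-2 with the drug, with a median of -0.80. Of 30 tested genes without it, 18 fell, with a median of -0.66, against 5.74% of all genes called lower. The largest fall, -1.28, was in the set without it. The octamer was spread unevenly over the classes, with none in H2B, H2A.Z or H2A.X, and whether it matters was not tested. The exception with an octamer was AT4G40040 of H3.3, at 0.03.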

How the data were processed

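RNA of 8 libraries was measured as 100-base single-end reads, per the labels' protocols. Per the file headers, the authors deposited a raw, unnormalized count for each gene in each replicate. The authors also deposited FPKM per replicate, and a log2 fold change and adjusted p-value for 3 comparisons, per the file headers. The submitters' processing notes name TopHat2, Cuffdiff and TAIR10, without roles or versions, and the strand used in counting is not given in the sources used here. Besides HTA12 and HTB10, the genes HTA13, HTA3, HTA9, HTB9, H1.1 and H1.2 overlap other loci on the opposite strand. Whether their counts include reads of those loci was not tested. Of the deposited per-sample columns, 8 were not used, and 43 genes without values were left out.

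The filterByExpr rule on low counts kept 19682 genes. With TMM scaling, all 4 groups went into 1 edgeR model (version 4.0.16, R 4.3.3); tests were 2-sided at an adjusted p below 0.05. The SE is the log2 fold change divided by the square root of F. In a second fit, class sums replaced their members. Alternatives used DESeq2 1.42.0 and limma 3.58.1, whose fold changes are on the log2(FPKM + 1) scale. At these depths 3 counts, the limit that a count of 0 allows, are 0.151 to 0.195 CPM; limits cover counting error only. The procedure was tested on simulated data. Sequences came from RefSeq TAIR10.1 by locus tag, which matched all 42 genes. Tables used Python 3.11.15.

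The histone genes, lists, tests and alternatives were chosen with earlier results of these data known. By rule, all 42 genes could be named, with every library's value for the most abundant of each class, the largest called change of each comparison and called genes opposite to their class, and up to 4 called genes per list.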

Additional observations from a re-analysis of the deposited data

Results flagged for a closer look

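The zebularine response differed between genotypes, by the test of the difference itself, for 10 histone genes and 1 class sum. As the log2 response of nse4a-2 minus that of wild type, the values were -1.53 for AT3G27360, -1.20 for AT3G45930, -1.18 for AT3G53730, -1.13 for AT3G46320, -1.09 for AT3G20670 and AT5G22880, -1.03 for AT5G59970, -1.01 for AT5G27670, -0.89 for AT5G59870 and AT1G07790, and -0.91 for the H2A.W sum. None of the 10 calls held in every fit that left out 1 library.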

How the results depend on the processing

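For zebularine in nse4a-2, the 27 lower histone genes became 26 to 30 under the other tools, scalings, filter, samples and block, and 19 to 28 without single libraries; 19 genes were called in every such fit. For nse4a-2 in zebularine the 28 became 27 to 30, and 22 to 28 without single libraries. The 10 lower genes of the difference became 23 with DESeq2, 21 without a low-count filter and 16 with the replicate block, and 0 to 9 without single libraries. For nse4a-2 in control medium, DESeq2 called 2 lower. The 2 higher genes there became 1 with upper-quartile scaling or library size alone, 0 with own groups alone or limma, and 0 to 3 without single libraries. In zebularine, 1 gene was higher, against 0, with library size alone or no filter, and 0 to 1 without single libraries. The H2A.X sum lost its call with own groups alone (-0.48), the replicate block (-0.47) and limma (-0.46), and ran from -0.57 to -0.38 without single libraries. The H2B sum ran from -0.82 to -0.67 and lost its call without nse4a-2_zeb replicate 2. The H1 sum was called with DESeq2 (-0.37), upper-quartile scaling (-0.43) and library size alone (-0.41). The H2A to H2A.Z difference was -0.61 by FPKM and -0.85 by the most abundant copies. The cause was not tested.

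No called value changed sign. Where both fits missed the threshold, a change of sign was not counted. Replicates R1 and R2 are not said to be paired, and their deviations correlated at -0.111 to 0.318 between groups. Fits that leave 1 library in a group assume it varies like the others.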
